A study of Mus musculus with 12 samples.

Results

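RING finger and MARCH ubiquitin ligases were followed in whole blood of mice exposed to chronic hypoxia (CH), in mice that had recovered from it (REC) and in normoxic mice (NX). Members were all genes whose platform symbol is Rnf followed by a number, or Marchf, the newer spelling of March, followed by a number from 1 to 11. The rule found 89 genes, 78 of them Rnf and 11 Marchf, among 18194 genes that have a probe set naming a single gene. They are read by 195 of the 45101 probe sets of the Affymetrix Mouse 430 2.0 array. Each gene is represented by the probe set with its highest mean log2 signal over the 12 arrays.

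All mice were C57Bl/10, 3 months old by the labels, with no transgene or drug, and each of the 4 arrays per group carried the blood RNA of a different mouse. The authors' methods give that age for the mice as obtained, so the groups may differ in age at sampling. CH mice spent 14 days in normobaric hypoxia, with inspired oxygen lowered stepwise from 21% to 8%, and were sampled at 8%. REC mice had the same 14 days of hypoxia followed by 14 days at 21% oxygen. NX mice breathed 21% oxygen throughout. One label field called the CH mice normoxic, and the titles, which match the protocol field, were followed.

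A RING domain holds a ubiquitin-conjugating enzyme next to a substrate, and most members pass ubiquitin to proteins in this way. MARCH ligases carry a variant RING domain, and most of them sit in membranes, where they set how long receptors and other membrane proteins last. In maturing red blood cells the ubiquitin system takes part in removing proteins and organelles, and in leukocytes it controls antigen presentation and immune signalling.

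The deposited signals have a 2% trimmed mean of 150.0 on every array, and array medians lie between 32.9 and 59.9. Arrays of a group correlated at 0.824 to 0.913 in CH, 0.955 to 0.975 in REC and 0.91 to 0.977 in NX (Pearson's r of log2 signals across probe sets). The 18 spiked hybridization controls, which are added in equal amounts, differed by 1.62 on the log2 scale between CH and NX, by -0.81 between REC and NX and by 2.43 between CH and REC. Relative to those controls the median of all genes shifts by -0.89 in CH against NX and by 0.59 in REC against NX, so every change below is relative to the mean signal of its own array.

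The blood markers moved with the groups. All 11 measured erythroid and reticulocyte markers of a list of 14 were higher in CH than in NX, and 6 were lower in REC than in NX. Their summed signal was 111700 to 178300 in CH, 5451 to 16140 in REC and 22210 to 33630 in NX. In CH, 7 of 9 B cell markers and 10 of 11 T cell markers were lower than in NX. The B cell sum was 2362 to 12580 in CH, 22870 to 27500 in REC and 18360 to 22830 in NX, and the T cell sum was 1787 to 7209 in CH, 12240 to 13070 in REC and 7359 to 9936 in NX. Of 8 NK cell markers, 1 was higher (Prf1) and 3 were lower in CH than in NX, Gzma and Nkg7 among them, and 4 were higher in REC than in NX. Of 9 monocyte markers, 2 were lower in CH than in NX (Csf1r and Adgre1), and none of 9 neutrophil or 7 platelet markers was called in CH or in REC against NX. No marker was at 0 in all groups, and Epx, an eosinophil peroxidase, was among the dimmest, with means of 9.455 in CH, 4.137 in REC and 3.294 in NX. In whole blood fewer cells of a type cannot be told apart from less RNA per cell, and the part of these shifts in the results below was not tested.

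**Figure D1:**
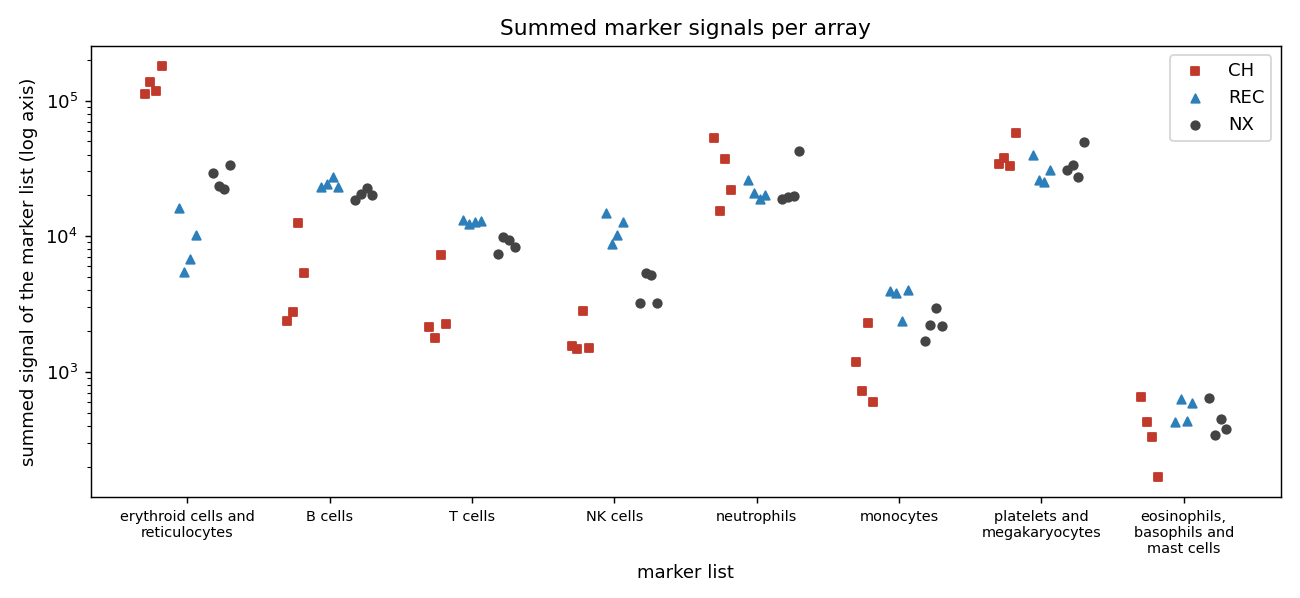
Summed signal of each marker list on a log axis, 1 point per array, with CH (squares), REC (triangles) and NX (circles). The erythroid sums of CH lie at 111700 to 178300, above all REC and NX arrays, and those of REC at 5451 to 16140, below all NX arrays.

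The family split in CH. A gene was called where the adjusted p of limma was below 0.05 and the groups differed 2-fold or more. By that call 13 of the 89 members were higher in CH than in NX (14.6%), while 9.08% of all genes were, and 21 were lower (23.6%), while 19.5% of all genes were. Mean signals were under 50 in all groups for 18 of the 89 members and for 6223 of the 18194 genes. The shares of all genes, here and below, include these dim genes and were not matched to the members for brightness. The median change of the members was -0.32 on the log2(signal + 16) scale, against 0.05 for all genes, with a range of -1.92 to 4.03. The higher members were Rnf5, Rnf10, Rnf11, Rnf14, Rnf20, Rnf114, Rnf115, Rnf123, Rnf187, Marchf2, Marchf3, Marchf5 and Marchf8. The split is tied to the scaling: with the arrays scaled on the hybridization controls 4 members were higher and 53 lower, so that 7.02% of the calls were increases, against 38.2% as deposited. The increases called on that scale were Rnf20, Rnf123, Marchf3 and Marchf5, at 1.09 to 2.43, while the other 9 lay between -0.38 and 0.74.

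After recovery 7 members were lower in REC than in NX (7.87%), where 1.79% of all genes were lower, and 0 were higher, where 2.5% of all genes were higher. At an unadjusted p under 0.05 the limma fit had 6 members higher in REC, and the test without moderation also called 0. The 7 were Rnf10, Rnf11, Rnf14, Rnf20, Marchf2, Marchf3 and Marchf5. The members' median change was -0.08, against -0.02 for all genes. With the controls as the scale 3 members were lower and 19 higher, so that increases made up 86.4% of the calls. With arrays scaled to a common median, 3 were lower and 1 was higher. The CH and REC comparisons share the 4 NX arrays, so their values are set side by side below and were not compared with each other as a result.

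Between CH and REC, 15 members were higher in CH (16.9%, against 12.3% of all genes) and 27 were lower (30.3%, against 23.3% of all genes). The increases were led by Marchf3 (5.01), Rnf10 (4.95), Marchf5 (4.84), Rnf20 (4.65), Rnf123 (4.37) and Rnf11 (3.46). The members' median was -0.53, against 0.07 for all genes. With the controls as the scale 6 were higher and 57 lower, and increases were 9.52% of the calls, against 35.7% as deposited.

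**Figure D2:**
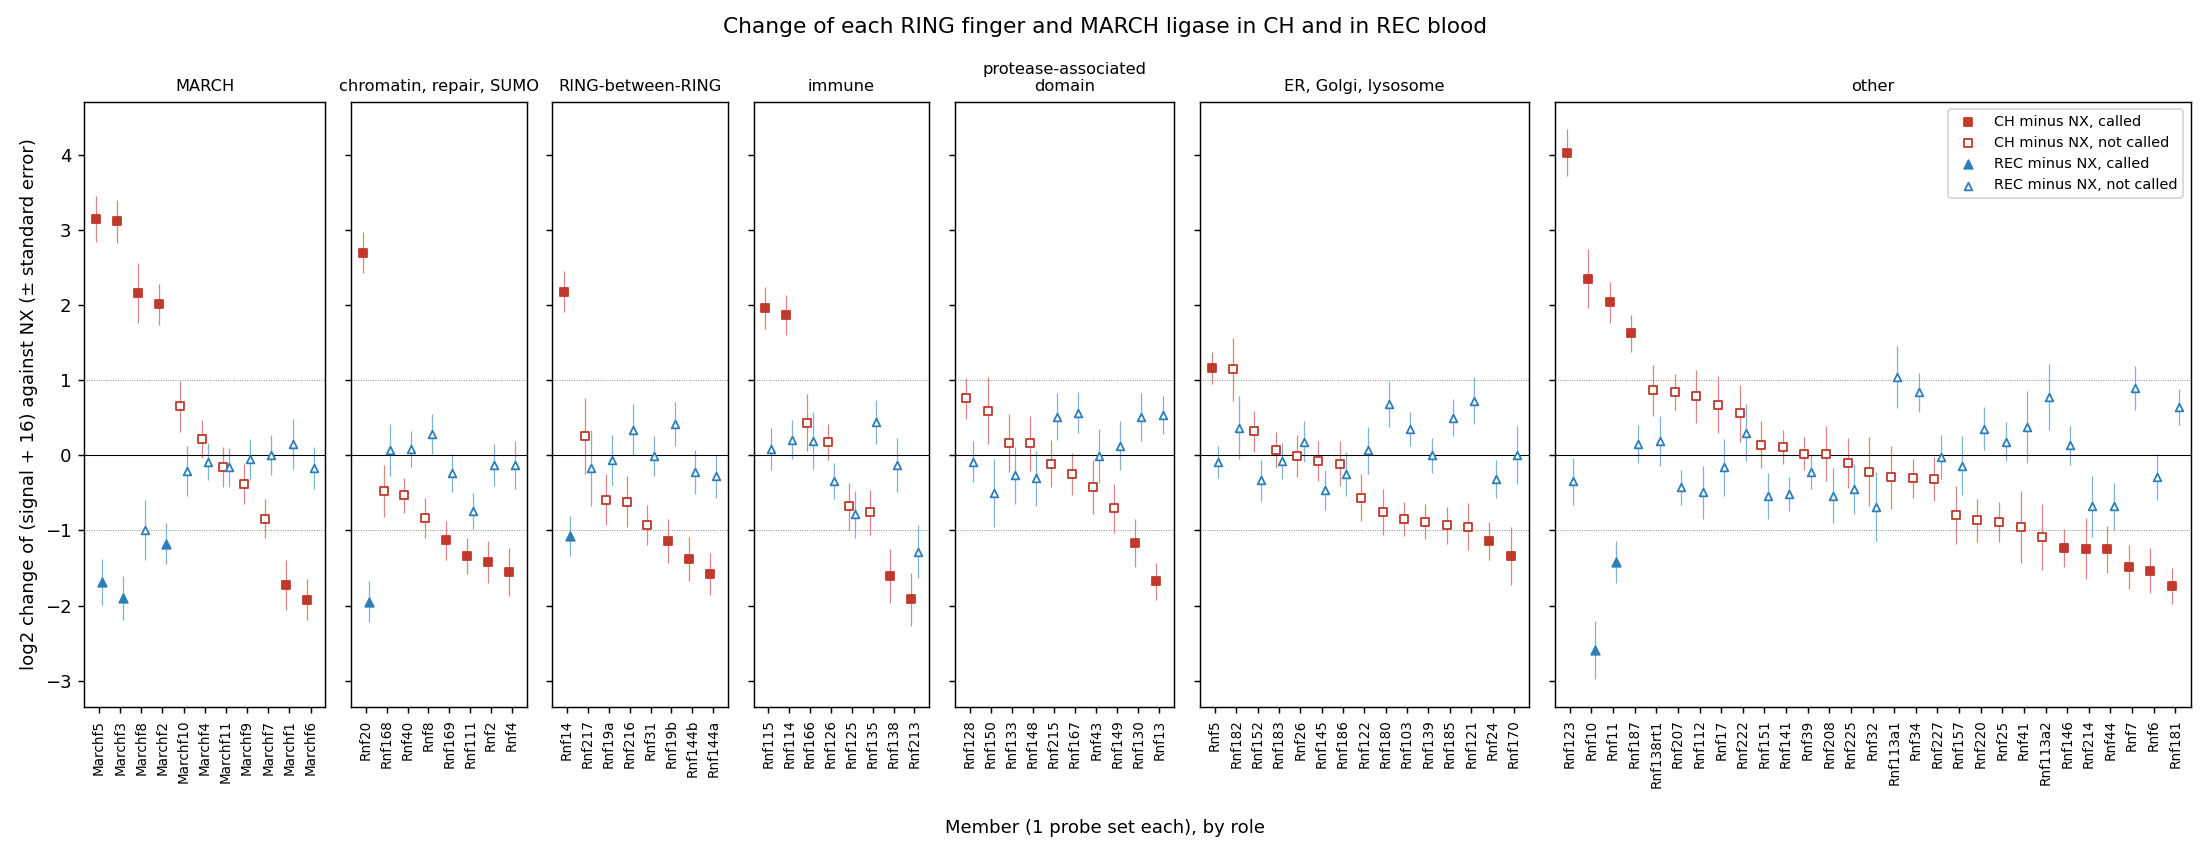
Change of each of the 89 members against NX on the log2(signal + 16) scale, in CH (squares) and in REC (triangles), grouped by role, with bars for the standard error and filled symbols for called members. Dotted lines mark a 2-fold change; the CH values run from -1.92 to 4.03 and the REC values from -2.59 to 1.05.

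Of the 11 MARCH ligases 4 were higher and 2 were lower in CH than in NX (9.08% and 19.5% of all genes). Marchf5, a ligase of the mitochondrial outer membrane, is read by probe set 1428843_at on chromosome 19. Its signal was 14170, 18680, 14200 and 27090 in CH, 874, 471, 628.2 and 525.7 in REC, and 1279, 2770, 2194 and 2029 in NX. All CH arrays were above and all REC arrays below every NX array. The change was 3.15 ± 0.31 in CH (log2, standard error, adjusted p = 8.25e-06) and -1.69 ± 0.31 in REC (adjusted p = 0.0064). The REC call ended when arrays were scaled to a common median, at -1.48, with the hybridization controls as the scale, at -0.89, and when all probe sets of the gene were averaged. A second probe set bright in CH, 1452925_a_at, gave 3.26 in CH and -1.80 in REC.

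Marchf3, a ligase of endosomal membranes on chromosome 18, had signals of 8535, 12640, 11060 and 11860 in CH, 505.2, 221.7, 250.5 and 380.7 in REC, and 879.5, 1575, 1318 and 1314 in NX. The 3 groups did not overlap. It was 3.11 ± 0.29 higher in CH (log2, adjusted p = 5.76e-06) and changed by -1.90 ± 0.29 in REC (adjusted p = 0.00249). Its 2 other probe sets were dim in every group, with mean signals of 1.996 to 33.75, and neither was called.

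Marchf2, the close relative of Marchf3, was among the brightest members, with 31910, 39670, 41760 and 55920 in CH, 7041, 3623, 3575 and 4663 in REC, and 9888, 9605, 8756 and 13400 in NX. The groups were again apart from each other. The change was 2.01 ± 0.28 in CH (adjusted p = 0.000123) and -1.17 ± 0.28 in REC (adjusted p = 0.0251). After quantile normalization the CH change was 0.22 and was no longer called. The REC call ended under several settings, among them 6 of the 8 in which a single NX or REC array was left out, with a range of -1.39 to -1.05.

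Marchf8, which removes the transferrin receptor, Cd86 and class II molecules from the cell surface, gave 1301, 3682, 4617 and 4135 in CH, 473.3, 245.6, 252.3 and 414.4 in REC, and 436.5, 1067, 590.3 and 770.6 in NX. CH array 1 was the lowest of its group and still above every NX array, while the REC and NX arrays overlapped. The change was 2.16 ± 0.40 in CH (adjusted p = 0.00108) and -0.996 ± 0.40 in REC, which did not pass the test (adjusted p = 0.197).

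Marchf1, the ligase that removes class II molecules and Cd86 in B cells and dendritic cells, went the other way, with 104.9, 111.6, 356.4 and 211.2 in CH, 591.1, 869.4, 812.6 and 529.7 in REC, and 530.8, 587.1, 704.8 and 645.8 in NX. Every CH array was below every REC and NX array. It changed by -1.73 ± 0.33 in CH (adjusted p = 0.00145) and by 0.16 ± 0.33 in REC (adjusted p = 0.879). Its probe set 1440209_at gave -1.75 in CH. Beside this, B cell markers were lower in CH, as given above.

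Marchf6, a ligase of protein degradation at the endoplasmic reticulum, had 133.3, 161.4, 238.4 and 281.8 in CH, 817.3, 613, 569 and 823.8 in REC, and 589.3, 972.9, 717.3 and 920 in NX. CH was below both other groups, which overlapped. The change was -1.92 ± 0.28 in CH (adjusted p = 0.000178), while its second probe set, with means of 68.51, 37.53 and 60.65 in CH, REC and NX, was not called. Marchf7 had signals of 326.6 to 766.3 in CH, 815.5 to 922.5 in REC and 792.6 to 994.6 in NX, a change of -0.85 that missed the 2-fold limit. Marchf4 and Marchf9 had mean signals under 50 in all groups, and Marchf10 (26.99 to 89.14 in CH) and Marchf11 (49.99 to 95.52 in CH) were not called.

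The list of surface substrates of MARCH ligases held members in both directions, with 3 of 10 measured genes higher in CH than in NX and 5 lower. The shares of all genes were 9.08% and 19.5%. Tfrc, the transferrin receptor, had 7101 to 17750 in CH, 488.5 to 659.0 in REC and 676.1 to 961.2 in NX (3.85 in CH, log2), and Slc3a2, the heavy chain of an amino acid transporter, changed by 3.81. The class II genes H2-Ab1 (-2.08) and H2-Eb1 (-2.08 on the same scale) were the largest decreases. None of the 10 was called in REC. Tfrc is also one of the erythroid markers.

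Among the 8 chromatin, DNA repair and SUMO-targeted ligases, 1 had more signal in CH and 4 had less (9.08% and 19.5% of all genes). The increase was Rnf20, which with Rnf40 ubiquitinates histone H2B. Rnf20 had 6688, 8243, 7103 and 12180 in CH, 372.3, 352.8, 278.9 and 272.1 in REC, and 1537, 983.1, 983.9 and 1738 in NX. The groups did not overlap, and the REC arrays lay within a narrow band. The change was 2.70 ± 0.27 in CH (adjusted p = 1.11e-05) and -1.95 ± 0.27 in REC (adjusted p = 0.00167), and the only setting tried that ended a call was the stricter limit of 0.001, which the REC call missed. Probe sets 1449664_s_at (2.73 in CH, -1.87 in REC) and 1452361_at (2.99 in CH, -2.22 in REC) gave the same calls, and another, dim probe set was not called. Its partner Rnf40 changed by -0.53 in CH (adjusted p = 0.107), with 221.9 to 353.7 in CH, 408.1 to 547.8 in REC and 346.4 to 526.2 in NX.

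The H2B partners differed among themselves, with 1 of 8 higher and 2 lower in CH (9.08% and 19.5% of all genes). Of 8 measured, Ube2b, the ubiquitin-conjugating enzyme that works with Rnf20, was higher in CH by 2.65 (log2), with 16250 to 23360 in CH, 1539 to 2116 in REC and 2278 to 4101 in NX. Rtf1 and Paf1, which belong to the Paf1 elongation complex, were lower in CH, by -1.75 and -1.12. In REC only Ube2a of the 8 was called, at 1.17, where 2.5% of all genes were higher and 1.79% lower.

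Rnf2, the catalytic subunit of Polycomb repressive complex 1, had 92.15, 173.8, 276 and 190.5 in CH, 446.7, 409.8, 520.1 and 405.2 in REC, and 460.5, 494, 519.3 and 469.4 in NX. The CH arrays were all below the others, at -1.42 ± 0.28 (adjusted p = 0.00147), and the call ended when all probe sets of the gene were averaged. Of 16 measured partners of Rnf2 none was higher and 7 were lower in CH (9.08% and 19.5% of all genes). The decreases were led by Phc3 (-1.95) and Yaf2 (-1.91), and none of the 16 was called in REC. Rnf4 and Rnf111, which act on SUMO-modified proteins, changed by -1.55 and -1.34 in CH, and Rnf169, a reader of ubiquitinated chromatin at DNA breaks, by -1.13. Rnf8 and Rnf168, the ligases that mark chromatin at breaks, were at -0.83 and -0.47 and were not called. Of their 10 partners 2 were higher in CH and 4 were lower (9.08% and 19.5% of all genes). The increases were Babam2 (1.5) and Brcc3 (1.12), and Mdc1 (-1.38) and H2ax (-1.21) led the decreases. In REC, 3 of these 10 were higher, led by H2ax (1.17) and Babam2 (1.07), and Atm was lower (-1.10). Of all genes 2.5% were higher and 1.79% lower in REC.

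Among RING-between-RING ligases, which take ubiquitin onto themselves before passing it on, 1 of 8 was higher in CH and 3 were lower. The shares of all genes were 9.08% and 19.5%. Rnf14, a coactivator of the androgen receptor in human cells, had 4060, 5612, 5095 and 8378 in CH, 721.9, 483.6, 453 and 657.6 in REC, and 960.6, 1311, 1283 and 1364 in NX. The groups were apart, by 2.18 ± 0.27 in CH (adjusted p = 4.87e-05) and -1.08 ± 0.27 in REC (adjusted p = 0.0322). The REC call was near its limits and ended with a pseudocount of 1, with both array scalings named above and in 6 of the 8 fits without a single NX or REC array. All 4 probe sets of Rnf14 were called higher in CH, at 1.66 to 2.36. In REC its probe set 1431030_a_at was also called lower, at -1.59, while 1425929_a_at (-0.82) and 1437035_x_at (-0.64) were not called. The lower members were Rnf144a (-1.58), Rnf144b (-1.38) and Rnf19b (-1.14), a ligase known from cytotoxic granules of NK cells. Of 8 measured NK cell markers 3 were lower in CH and 1, Prf1, was higher.

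Rnf31, the catalytic subunit of the linear ubiquitin complex, had 58.41 to 121.8 in CH, 151.2 to 193.3 in REC and 134.1 to 229.2 in NX, a change of -0.93 that passed the adjusted p but not the 2-fold limit. Of its 7 measured partners 1 was higher and 4 were lower in CH (9.08% and 19.5% of all genes). The decreases were led by Sharpin (-1.72), a subunit of that complex, and Tnfaip3 (-1.45), a ubiquitin-editing enzyme. Ikbkg, the regulatory subunit of a kinase complex and a carrier of linear chains, was higher at 3.11. Its signal was 2118 to 4591 in CH, 159.5 to 239.6 in REC and 257.4 to 387.3 in NX. None of the 7 was called in REC.

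Of 29 ligases outside the named classes, 4 increased and 6 decreased in CH relative to NX (9.08% and 19.5% of all genes). Rnf123, the catalytic subunit of the complex that ubiquitinates the cell cycle inhibitor Cdkn1b, had the largest increase of all 89 members in CH. Its signal was 4123, 4953, 3629 and 9507 in CH, 288.7, 178.2, 241.3 and 237.2 in REC, and 218.3, 401.6, 346.8 and 265.3 in NX. CH was far above the other groups, which overlapped. The change was 4.03 ± 0.31 in CH (adjusted p = 1.81e-06) and -0.34 ± 0.31 in REC (adjusted p = 0.646), and the CH call held under every setting tried, at 2.43 with the hybridization controls as the scale. Ubac1, the other subunit of that complex, had 4190 to 7030 in CH, 229.5 to 409.6 in REC and 510.1 to 1318 in NX, with changes of 2.67 in CH and -1.61 in REC, and Cdkn1b was not called.

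Rnf10, which ubiquitinates proteins of the small ribosomal subunit in human cells, had 29090, 36370, 36590 and 49830 in CH, 2923, 590.4, 842.3 and 1373 in REC, and 6299, 7784, 6630 and 8599 in NX. The groups were apart, and REC array 1 was the highest of its group. Rnf10 changed by 2.36 ± 0.39 in CH (adjusted p = 0.000489) and by -2.59 ± 0.39 in REC (adjusted p = 0.00238), the largest decrease of the members in REC. Without a single NX or REC array the REC value lay between -3.02 and -2.26, and averaging all probe sets of the gene ended both calls. After quantile normalization the CH change was 0.57 and not called. Its 2 other probe sets, 1456689_at and 1459209_at, were not called in CH or REC against NX. The first went the other way, at -0.72 in CH (limma adjusted p = 0.0409, under the 2-fold limit) and 0.16 in REC. Its CH arrays were all below the NX arrays. The second, dimmer one gave 0.60 in CH and -0.41 in REC.

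Rnf11, an adaptor of the Tnfaip3 ubiquitin-editing complex, had 23360, 29210, 31130 and 40160 in CH, 3925, 2075, 2348 and 3018 in REC, and 7249, 6671, 5935 and 10390 in NX, with no overlap between groups. It changed by 2.04 ± 0.28 in CH (adjusted p = 0.00011) and by -1.42 ± 0.28 in REC (adjusted p = 0.00979). All 4 of its probe sets were called higher in CH, at 2.04 to 2.54, and lower in REC, at -2.36 to -1.20. Quantile normalization took the CH change of the brightest one to 0.27, and its REC call ended with median scaling, at -1.20, and with the control scaling, at -0.61. Rnf187, a coactivator of the transcription factor AP-1, changed by 1.63 in CH, and by 0.44, not called, after quantile normalization.

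**Figure D3:**
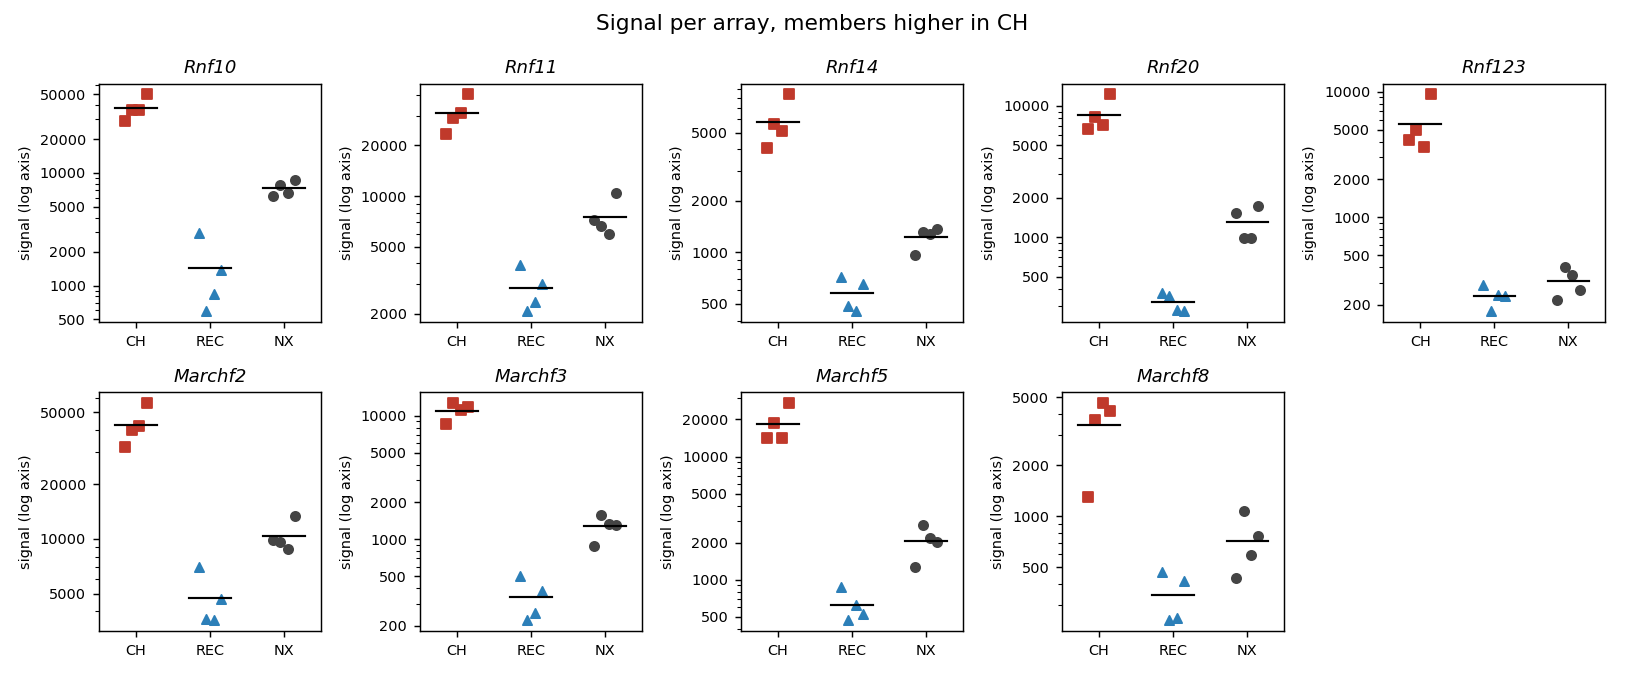
Signal of 9 members higher in CH, 1 point per array on log axes, with a line at the mean of the 4 arrays. The CH arrays lie above all REC and NX arrays in each panel, and the REC arrays lie below all NX arrays in every panel other than Rnf123 and Marchf8.

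Promoters are shown for the 2 largest increases in CH that have a window in the RefSeq table (Rnf123 and Marchf5), for the largest decrease in REC (Rnf10) and for Marchf8. Each window runs from 250 bases before the start of the gene to 50 after it, on GRCm38.p6. Capitals mark matches on either strand to AGATAA or TGATAA, the letters that GATA factors bind, to CCNCNCCC, which Krüppel-like factors bind, and to CACGTG, an E-box. Motifs were chosen with the results known.
Rnf123, chr9:108079252-108079551, minus strand: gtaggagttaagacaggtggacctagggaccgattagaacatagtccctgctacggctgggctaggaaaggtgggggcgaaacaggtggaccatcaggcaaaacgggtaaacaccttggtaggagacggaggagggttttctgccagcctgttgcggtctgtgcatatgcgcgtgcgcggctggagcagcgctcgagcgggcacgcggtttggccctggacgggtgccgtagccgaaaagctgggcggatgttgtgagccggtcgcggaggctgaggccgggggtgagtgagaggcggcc
Marchf5, chr19:37207290-37207589, plus strand: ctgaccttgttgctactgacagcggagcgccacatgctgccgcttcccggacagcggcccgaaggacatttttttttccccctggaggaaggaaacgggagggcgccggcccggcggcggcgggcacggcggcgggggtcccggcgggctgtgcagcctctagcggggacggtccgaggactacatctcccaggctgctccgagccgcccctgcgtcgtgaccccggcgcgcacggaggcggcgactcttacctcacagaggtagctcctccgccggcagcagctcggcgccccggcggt
Rnf10, chr5:115272846-115273145, minus strand: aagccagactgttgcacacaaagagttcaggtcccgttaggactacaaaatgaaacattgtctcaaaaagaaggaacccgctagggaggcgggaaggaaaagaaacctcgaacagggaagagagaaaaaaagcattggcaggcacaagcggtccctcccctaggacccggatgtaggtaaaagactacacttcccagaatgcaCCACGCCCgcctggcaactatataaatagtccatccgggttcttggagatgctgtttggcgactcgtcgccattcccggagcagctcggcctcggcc
Marchf8, chr6:116337772-116338071, plus strand: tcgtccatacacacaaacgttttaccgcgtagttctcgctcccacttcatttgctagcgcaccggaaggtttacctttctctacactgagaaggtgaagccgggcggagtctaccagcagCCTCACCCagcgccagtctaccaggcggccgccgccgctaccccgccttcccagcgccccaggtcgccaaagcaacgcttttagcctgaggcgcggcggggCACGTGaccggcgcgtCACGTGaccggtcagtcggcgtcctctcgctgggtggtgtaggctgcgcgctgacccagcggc
The windows of Rnf123 and Marchf5 held none of these letters, that of Rnf10 held 1 match to CCNCNCCC, and that of Marchf8 held 1 match to CCNCNCCC and 2 to CACGTG. Of the members higher in CH, 8 had a window, and 0 of them held AGATAA or TGATAA, 4 held CCNCNCCC and 1 held CACGTG. Among all 27025 genes in the table the shares were 19.0%, 49.1% and 7.24%. A match is a description of letters only, and no match says only that they are not in this window.

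Decreases in CH were smaller than the largest increases. Rnf7, a RING subunit of cullin ligases, had 101.1, 153.2, 293.3 and 124.9 in CH, 738.9, 991.9, 921.5 and 906.4 in REC, and 399.6, 526.2, 579.6 and 384.2 in NX. CH was lowest and REC highest with no overlap. The change was -1.49 ± 0.29 in CH against NX (adjusted p = 0.00161) and -2.39 ± 0.29 in CH against REC (adjusted p = 2.39e-05), the largest decrease of the members there, while REC against NX was 0.90 and did not pass the test (adjusted p = 0.0982). The other probe set of Rnf7, 1426414_a_at, gave -1.09 in CH against NX, called, and -0.50 in CH against REC, not called.

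Rnf181, known in human platelets as a partner of an integrin, had 245.1, 180.7, 274.8 and 261.4 in CH, 1522, 1209, 1407 and 1138 in REC, and 590, 969.9, 857.5 and 975.4 in NX. Here too the groups did not overlap. It changed by -1.74 ± 0.24 in CH (adjusted p = 0.000129) and by 0.65 ± 0.24 in REC (adjusted p = 0.159). Platelet markers were not called in CH against NX.

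The ligases with a protease-associated domain, which are transmembrane proteins, had 0 of 10 higher and 2 lower in CH. The shares of all genes were 9.08% and 19.5%. Rnf13 had 81.64, 103, 129.2 and 131.8 in CH, 592.7, 532, 552.1 and 600.4 in REC, and 350.1, 292.1, 361.8 and 598.3 in NX. All CH arrays were below the others, at -1.68 ± 0.25 against NX (adjusted p = 0.000246) and -2.22 ± 0.25 against REC (adjusted p = 1.24e-05). Its 3 other probe sets were not called in any comparison. Rnf130 changed by -1.17 in CH, where its arrays overlapped those of NX, and its dim probe set 1440941_at was called the other way at 1.07.

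Of 8 immune regulators 2 were higher and 2 lower in CH (9.08% and 19.5% of all genes). Rnf115 and Rnf114 were the increases, at 1.96 and 1.87, with 2632 to 6452 and 4029 to 10010 in CH, 905 to 1177 and 1949 to 2254 in REC, and 801.3 to 1149 and 1565 to 2016 in NX. In neither were REC and NX apart. Rnf166 was not called on its brightest probe set (0.44), while its 2 other probe sets were called lower in CH, at -1.74 and -2.39.

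Rnf213, a giant ATPase with a RING domain that restricts microbes, had 192, 335.5, 755.8 and 497.2 in CH, 414.2, 789.7, 644.6 and 718.6 in REC, and 1245, 1836, 1755 and 1409 in NX. NX was above both other groups, which overlapped. The change was -1.92 ± 0.36 in CH (adjusted p = 0.00109) and -1.28 ± 0.36 in REC, where the test was missed (adjusted p = 0.0534). A second probe set, 1460018_at, was not called and went the other way in CH, at 0.63, with means of 103.3 in CH and 57.02 in NX.

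Rnf138, a ligase of the DNA damage response, was counted above among the immune regulators. Its signal was 302.3, 160.1, 93.11 and 69.57 in CH, 418.9, 325.1, 341.2 and 591.6 in REC, and 402.1, 383.6, 445.9 and 571.6 in NX. The CH arrays were spread widely and all lay below the rest, at -1.61 ± 0.36 (adjusted p = 0.00381). Another of its 3 probe sets, 1454064_a_at, gave -1.57 in CH and was also called. The remaining one, 1419368_a_at, gave -1.06 in CH against NX and was not called (limma adjusted p = 0.0794), and its CH and NX arrays overlapped.

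Rnf113a2, related to the splicing factor Rnf113a1, was called only between CH and REC. It had 9.116, 121.6, 115.3 and 115.7 in CH, 268.9, 289.2, 384 and 284.5 in REC, and 146.5, 187, 185.2 and 166.3 in NX. CH array 1 stood far below the other 3. The change was -1.86 ± 0.44 in CH against REC (adjusted p = 0.00435), and without that array it was -1.26, still called.

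**Figure D4:**
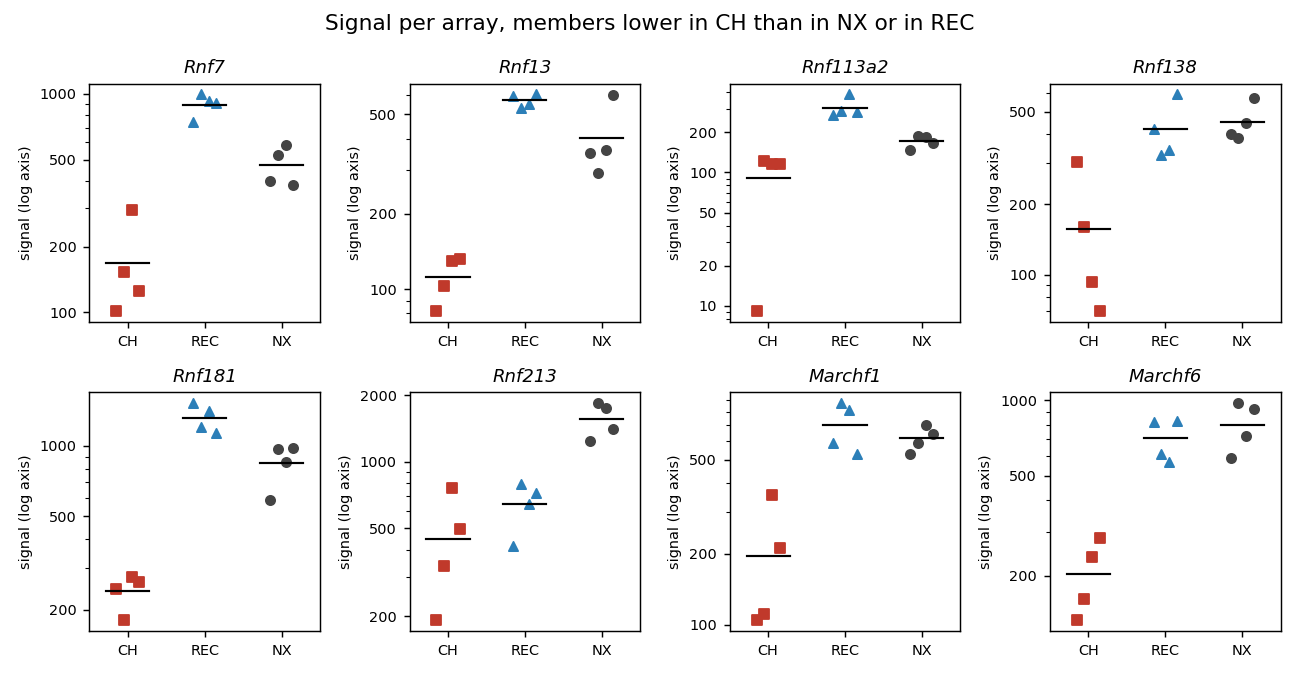
Signal of 8 members lower in CH than in NX or in REC, 1 point per array on log axes, with a line at the mean of the 4 arrays. The CH arrays lie below all NX arrays in every panel, and Rnf213 is the panel in which CH and REC overlap.

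Of the 15 ligases of the endoplasmic reticulum, Golgi and lysosome 1 was higher and 2 were lower in CH (9.08% and 19.5% of all genes). Rnf5, which degrades misfolded membrane proteins, had 452.7 to 715.3 in CH, 200.8 to 237.1 in REC and 211.2 to 257.7 in NX, a change of 1.16 that turned to -0.38 with the hybridization controls as the scale. Rnf170, which degrades inositol trisphosphate receptors, changed by -1.34 and Rnf24 by -1.14. None of the 15 was called in REC against NX, where they ranged from -0.46 to 0.73.

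The remaining decreases in CH were Rnf6 (-1.54), Rnf44 (-1.25), Rnf214 (-1.24) and Rnf146 (-1.23), a ligase of proteins tagged with poly-ADP-ribose. After quantile normalization Rnf146 was at -0.88 and not called. Its other probe sets were not called in CH: 1425001_at went the other way, at 0.69, and 1425713_a_at was at -0.09. Rnf214 had signals of 1.076 to 64.12 in CH, 37.21 to 94.68 in REC and 81.45 to 114.4 in NX, and its call ended under 9 other settings and at the stricter limit of 0.001. Besides Rnf166, a probe set other than the brightest was called in CH against NX for Rnf103 (-1.27), Rnf157 (-1.12), Rnf185 (-1.72) and Rnf207 (1.197), and in REC against NX for Marchf7 (-1.29); the counts above leave these out. Of the 89 members, 18 had mean signals under 50 in all 3 groups and 71 did not. Of the dim ones Rnf112 and Rnf180 were called, both only between CH and REC, at 1.28 and -1.45.

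RING ligases of other families, 60 of 64 listed being measured, had 8 higher and 24 lower in CH (9.08% and 19.5% of all genes). Their median change was -0.78, against 0.05 for all genes. Trim10, an erythroid ligase, had 8799 to 14970 in CH, 78.76 to 557.3 in REC and 609.9 to 1808 in NX (3.62 in CH and -2.15 in REC), and Cgrrf1 changed by 3.52 in CH. Birc2, an inhibitor of apoptosis, changed by -2.95 and Trim25, a ligase of antiviral signalling, by -2.25. In REC 2 of the 60 were higher, Anapc11 (1.16) and Trim37 (1.11), and 7 were lower, led by Trim10 and Mkrn1 (-1.67). Of all genes 2.5% were higher and 1.79% lower in REC.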

How the data were processed

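Blood RNA of 12 mice was amplified and hybridized to Affymetrix Mouse 430 2.0 arrays. The authors deposited 1 intensity per probe set and array on a linear scale. Their methods name GC-RMA in Partek, which gives log2 values, while these intensities are linear and share a 2% trimmed mean of 150.0. They also say that GCOS stored the raw intensities of the probe sets and that scaling factors normalized the chips; the deposited table is not tied to either program by name. No background values, detection calls, batches or scan dates were used, and signal and the number of arrays limit the precision. By the platform annotation 34958 probe sets name 1 gene, 932 several and 9211 none. All 89 members matched RefSeq of GRCm38.p6 by gene number, with no symbol changed.

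With limma 3.58.1 (R 4.3.3), 1 mean per group was fitted to log2(signal + 16) of the 12 arrays, leaving 9 residual degrees of freedom, and p-values were adjusted by Benjamini-Hochberg over 45101 probe sets. The pseudocount of 16 understates changes of dim genes. A call needs an adjusted p under 0.05 and at least 2-fold change. The script was tested on simulated data. Values in full are given for the 6 largest called increases and decreases of each comparison, for members called in both CH and REC, and for called MARCH members; other members named were picked from their role group after their values were seen. Alternatives were quantile, median and hybridization control scaling, a pseudocount of 1, no dim probe sets (mean signal under 50 in all groups), a robust trended prior, no moderation, only the 8 arrays compared, array weights, a replicate block, averaged probe sets of each gene, a limit of 0.001, updated symbols and each array left out. Members, role groups, marker and partner lists were chosen with earlier results of these data known. Figures were drawn with matplotlib.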

Additional observations from a re-analysis of the deposited data

Results flagged for a closer look

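Rnf113a2 had a signal of 9.12 in CH array 1, against 115 to 122 in the other 3 CH arrays, a gap larger than chance usually gives in a group of 4. It was 1 of 51 groups of 4 arrays tested over 17 members, and chance flags about 1 in 20 groups.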

How the results depend on the processing

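Against NX, the count of members higher in CH was 13 and was 4 with hybridization control scaling, where Rnf5 turned to -0.38. The count lower in CH was 21 and was 53 with that scaling, 12 with each gene's probe sets averaged and 5 at an adjusted p under 0.001. The count higher in REC was 0, and was 1 with median scaling and 19 with hybridization control scaling. The count lower in REC was 7, and was 3 with median scaling, 3 with hybridization control scaling, 4 with the mean of probe sets and 0 at the stricter limit. Between CH and REC, the count higher in CH was 15 and 6 with hybridization control scaling, and the count lower was 27, and was 57 with that scaling, 15 with the mean of probe sets and 11 at the stricter limit. With median scaling increases were 28.6%, 25% and 25.5% of the member calls in CH against NX, REC against NX and CH against REC. Averaging probe sets ended the REC calls of Rnf10, Marchf2 and Marchf5 and the CH calls of Rnf2, Rnf4, Rnf10, Rnf13, Rnf24, Rnf130, Rnf144b, Rnf146, Rnf169, Rnf170, Rnf213, Rnf214, Marchf3 and Marchf6. The causes were not tested.

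Leaving out each array in turn gave 13 to 16 higher and 19 to 28 lower in CH against NX, 0 to 0 higher and 5 to 7 lower in REC against NX, and 15 to 19 higher and 23 to 31 lower in CH against REC. Single omissions ended the CH decreases of Rnf19b (-0.97 without CH array 1), Rnf24 (-0.98 without CH array 2), Rnf130 (-0.93 without CH array 2), Rnf169 (-0.95 without CH array 4), Rnf170 (-0.87 without CH array 4, lost also without NX array 3) and Rnf214. Under every alternative tried, the stricter limit of 0.001 included, the CH increases of Rnf20, Rnf123 and Marchf5 and the CH decreases of Rnf111, Rnf144a and Rnf181 held. The REC calls of Rnf20 and Marchf3 were lost only at that limit, as were the CH decreases of Rnf6, Rnf7, Rnf44, Rnf138 and Marchf1. Same-numbered arrays correlated at -0.203 to 0.436 in their deviations, with the highest value between CH array 1 and NX array 1. With so few arrays this does not decide whether the numbers mark a shared batch. With the replicate block 14 members were higher and 21 lower in CH, 8 were lower in REC, and no member call was lost. Signal limits the 18 members under 50 in all groups.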
